A study of Mus musculus with 22 samples.

Results

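The genes described here are Ctgf, Cyr61, Amotl1, Amotl2, Ankrd1, Ajuba, Axl, Crim1, Nt5e and F3, an extended list of genes whose transcription is known to respond to the co-activator YAP. They were selected by gene symbol in both tables of read counts, where they are 10 of 48709 gene identifiers. All 10 passed the filter on low counts, a mean count above 1 over the libraries of an experiment, together with 19752 genes in all in experiment 1 and 17675 in experiment 2.

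The study asked whether loss of the Hippo pathway protein SAV1 in the embryonic mouse heart acts through LIN9, and sequenced bulk RNA from E13.5 ventricles. Each of 6 groups had 3 libraries (18 in all). For LIN9 KO against LIN9 wt the study speaks of 2 biological replicates, each in triplicate, and it does not say that libraries are separate embryos, so that the spread between libraries of a group may be partly technical. In chi-square over degrees of freedom, pairs within LIN9 KO of experiment 1 differed by 16.2 to 26.2 and pairs within LIN9 wt by 5.67 to 10.2. LIN9 KO Sav1 wt replicate 3 differed from replicates 1 and 2 of its group by 21.5 and 15.2, where these differed by 6.28. Pairs within the libraries labelled LIN9 KO Sav1 KO differed by 2.83 to 7.33, and pairs within LIN9 wt Sav1 KO by only 1.39 to 1.98. Replicates 2 and 3 of LIN9 wt Sav1 wt differed by 1.22, and replicate 1 differed from them by 4.87 and 5.11. Total counts ran from 9485599 to 9615274 per library in experiment 1 and from 2770741 to 2999877 in experiment 2. One count therefore stands for a larger share of a library in experiment 2, and low genes are measured less precisely there. The ribosomal RNA gene Rn18s-rs5 was looked up in all libraries because it had the most counts of any gene in 3 of them. It held 0.448%, 0.494% and 0.648% of counts in LIN9 wt Sav1 wt, 0.0838%, 0.118% and 1.94% in LIN9 KO Sav1 wt, 0.187%, 0.190% and 0.256% in LIN9 wt Sav1 KO and 0.783%, 1.36% and 1.25% in the libraries labelled LIN9 KO Sav1 KO, and at most 0.184% in experiment 1.

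All groups carried Nkx2.5-Cre, which is active in cardiac progenitors and their descendants and leaves most other cells of the ventricle, such as blood cells, with intact alleles. In experiment 1, LIN9 wt ventricles were compared with LIN9 KO ventricles, in which exon 7 of Lin9 is flanked by loxP sites and removed by Cre, both with wild-type Sav1. In experiment 2, the groups were LIN9 wt Sav1 wt, LIN9 wt Sav1 KO, LIN9 KO Sav1 wt and LIN9 KO Sav1 KO, where Sav1 KO stands for removal of floxed exon 3 of Sav1. The sample labels call the LIN9 wt groups wild-type, whereas the study gives the genotype of LIN9 wt ventricles as Lin9 fl/+ with Cre, that is, with a single floxed copy, in both experiments. Because whole ventricles were sequenced, each value mixes cardiomyocytes with endocardial, epicardial, mesenchymal and blood cells.

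In the Hippo pathway, the MST kinases with their scaffold SAV1 activate the LATS kinases, which phosphorylate YAP and its relative TAZ (gene Wwtr1) and keep them out of the nucleus. Unphosphorylated YAP and TAZ bind TEAD factors on DNA, often close to AP-1 motifs, and raise the transcription of genes of matrix, adhesion and growth, and YAP is known to promote cardiomyocyte proliferation before birth. LIN9 is a core subunit of the MuvB complex, which binds promoters with a CHR element and, together with B-MYB, activates genes of mitosis.

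The deleted genes were examined first as a check of the labels. Levels are given as CPM, which are counts relative to library size, scaled by the trimmed mean of M values, and a count over the whole gene covers more than the deleted exon. In experiment 1, Lin9 was at 29.8, 21.4 and 25.6 CPM in LIN9 wt and at 21.4, 21.3 and 19.2 CPM in LIN9 KO libraries. In LIN9 wt Sav1 wt libraries it was at 29.3, 28.1 and 23.2 CPM, and in LIN9 KO Sav1 wt libraries at 13.1, 15.4 and 17.9 CPM. All LIN9 KO values lay below all LIN9 wt values in these comparisons, in experiment 1 by little (21.36 against 21.40 CPM for the nearest libraries), and the difference passed the threshold in experiment 2 (0.05 on the p of edgeR's quasi-likelihood F-test, adjusted for all genes tested by the method of Benjamini and Hochberg; log2 fold change -0.80 ± 0.19 SE, adjusted p = 0.00270) but not in experiment 1 (-0.31 ± 0.14, adjusted p = 0.130, and -0.19 without LIN9 wt replicate 1). The libraries labelled LIN9 KO Sav1 KO had 23.5, 26.1 and 18.5 CPM of Lin9, against 19.2, 31.4 and 25.6 CPM in LIN9 wt Sav1 KO. These groups overlapped (log2 fold change -0.16 ± 0.18, adjusted p = 0.586 by edgeR), and without LIN9 wt Sav1 KO replicate 2 the difference changed sign (0.02, adjusted p = 0.963). The Lin9 counts thus did not show the deletion in the libraries labelled LIN9 KO Sav1 KO, and directions drawn from them rest on the label. In Lin9 these 3 libraries also lay above the LIN9 KO Sav1 wt libraries (18.5 against 17.9 CPM for the nearest), without passing the threshold (0.56 ± 0.20, unadjusted p = 0.00862, adjusted p = 0.238 by edgeR), and the interaction for Lin9 was 0.64 ± 0.27 (unadjusted p = 0.0233, adjusted p = 0.710 by edgeR). In markers they lay near LIN9 KO Sav1 wt: the summed level of the cardiomyocyte markers with counts (9 of 10) was 12393 to 15981.5 CPM in them, 12613 to 14218 CPM in LIN9 KO Sav1 wt and at least 24723 CPM in the LIN9 wt groups of experiment 2. The study itself reports that hearts of the double knockout had the morphological defects of the Lin9 knockout.

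Sav1 was at 54.5, 56.2 and 61.9 CPM in LIN9 wt Sav1 wt and at 43.1, 36.1 and 43.0 CPM in LIN9 wt Sav1 KO libraries. With LIN9 deleted it was at 51.9, 49.9 and 47.3 CPM with Sav1 wt, and at 44.0, 40.5 and 42.3 CPM in the libraries labelled LIN9 KO Sav1 KO. All Sav1 KO values were below all Sav1 wt values in each background, yet neither difference passed the adjusted threshold (log2 fold change -0.50 ± 0.12, adjusted p = 0.318, and -0.23 ± 0.12, adjusted p = 0.464, by edgeR). Under other settings with no library of the comparison left out, by edgeR or DESeq2, adjusted p ran from 0.0790 to 0.9998 and from 0.402 to 0.680. Exons of Atl1 and Gm3086, on the other strand, cover 25.38% of the exonic length of Sav1, and the counting is not stated to use strand, so that the Sav1 counts are uncertain to that extent.

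The members encode proteins of several kinds. Ctgf (ENSMUSG00000019997, chr10:24595442-24598683, plus strand) and Cyr61 (ENSMUSG00000028195, chr3:145646976-145649981, minus strand), now named Ccn2 and Ccn1, encode secreted matricellular proteins. Amotl1 (ENSMUSG00000013076, chr9:14541966-14645056, minus strand) and Amotl2 (ENSMUSG00000032531, chr9:102716672-102733418, plus strand) encode motins, junction proteins that bind and restrain YAP. Ajuba (ENSMUSG00000022178, chr14:54567472-54577558, minus strand) encodes a LIM protein that inhibits the LATS kinases. Ankrd1 (ENSMUSG00000024803, chr19:36111961-36120099, minus strand) encodes an ankyrin repeat protein of the sarcomere and nucleus of muscle cells. At the cell surface, Axl (ENSMUSG00000002602, chr7:25757273-25788705, minus strand) is a receptor tyrosine kinase and Crim1 (ENSMUSG00000024074, chr17:78200248-78376592, plus strand) a transmembrane protein that binds BMPs. Nt5e (ENSMUSG00000032420, chr9:88327197-88372092, plus strand) encodes the ectonucleotidase CD73 and F3 (ENSMUSG00000028128, chr3:121723537-121735048, plus strand) encodes tissue factor, the initiator of clotting. Positions are those of the mouse build mm10 (GRCm38) for the whole gene, exons and introns included, and all 10 are annotated as protein coding.

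Exons of Gm15270, on the other strand, cover 23.24% of the exonic length of Ctgf. Gm15270 had 19 to 34 counts per library in experiment 1, where Ctgf had 753 to 1470, and 5 to 15 counts in experiment 2, where Ctgf had 233 to 466. Exons of Fez2 (other strand) and Gm25069 (at 0 counts) cover 2.05% of the exonic length of Crim1. Fez2 had 401 to 495 counts in experiment 1, where Crim1 had 227 to 358, and 96 to 160 in experiment 2, where Crim1 had 59 to 139, and it was above Crim1 in 6 of 6 and 9 of 12 libraries. Without stated strand, the reads of such pairs cannot be told apart, so that Ctgf and Crim1 counts are uncertain to this extent. The exons of the other 8 members are free of exons of other genes.

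Promoter sequences from RefSeq (GRCm38.p6), running from 250 bases before to 50 bases after the transcription start, were matched for 9 of the 10 members. Ctgf had no entry. The TEAD core CATTCC was found on either strand in 6 of the 9, compared with 14.7% of 32851 promoters of this length. Cyr61, Amotl2, Axl and Crim1 held 1 copy each, and Ankrd1 and Ajuba 2 copies each. The AP-1 motif TGANTCA was found only in the F3 promoter among the 9, with 2 copies, and was present in 7.81% of all promoters. The CHR element TTTGAA was found in the Amotl1 promoter alone among the 9 and in 17.9% of all promoters, and the Nt5e window held none of these motifs. No match overlapped another in these windows. A match is a description of the letters in the window and not evidence of binding.

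The promoters of Cyr61 and Axl are printed because these genes rose in several comparisons described further on, and those of Ankrd1 and Ajuba because they hold 2 copies of the TEAD core, while neither gene was called in experiment 2 by edgeR. Each is written 5′ to 3′ on the strand of the gene, with the TEAD core (CATTCC, or GGAATG where it lies on the other strand) in capitals. The windows are chr3:145649936-145650235 for Cyr61, chr7:25788684-25788983 for Axl, chr19:36119795-36120094 for Ankrd1 and chr14:54577612-54577911 for Ajuba, all on the minus strand.
Cyr61: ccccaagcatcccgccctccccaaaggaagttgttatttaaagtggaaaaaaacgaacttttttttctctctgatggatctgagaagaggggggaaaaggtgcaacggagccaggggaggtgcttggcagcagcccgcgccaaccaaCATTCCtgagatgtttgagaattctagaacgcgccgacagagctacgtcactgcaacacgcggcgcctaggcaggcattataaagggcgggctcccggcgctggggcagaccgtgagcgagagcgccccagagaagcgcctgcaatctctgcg
Axl: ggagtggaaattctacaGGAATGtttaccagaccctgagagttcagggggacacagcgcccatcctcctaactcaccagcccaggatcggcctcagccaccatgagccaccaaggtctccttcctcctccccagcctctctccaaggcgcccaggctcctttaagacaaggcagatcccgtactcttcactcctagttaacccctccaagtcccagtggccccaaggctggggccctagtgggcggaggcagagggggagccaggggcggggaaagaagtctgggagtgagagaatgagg
Ankrd1: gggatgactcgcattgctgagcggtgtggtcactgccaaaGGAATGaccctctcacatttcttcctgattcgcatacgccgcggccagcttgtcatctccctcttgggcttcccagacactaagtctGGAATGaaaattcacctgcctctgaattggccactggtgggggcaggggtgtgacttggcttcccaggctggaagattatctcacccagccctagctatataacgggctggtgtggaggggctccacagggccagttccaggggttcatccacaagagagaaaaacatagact
Ajuba: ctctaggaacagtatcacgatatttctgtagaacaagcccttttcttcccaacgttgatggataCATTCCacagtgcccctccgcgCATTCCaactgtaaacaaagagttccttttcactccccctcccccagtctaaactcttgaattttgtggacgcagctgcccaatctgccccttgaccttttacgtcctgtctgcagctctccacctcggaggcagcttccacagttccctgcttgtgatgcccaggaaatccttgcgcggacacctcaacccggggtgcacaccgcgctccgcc
Counted from the 5′ end of the window, the core starts at base 148 in Cyr61 and at base 18 in Axl. In Ankrd1 it starts at bases 41 and 128, and in Ajuba at bases 65 and 87.

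The members differed widely in level. Per kb of exonic length, Ankrd1 had the highest level in control ventricles, with a mean of 363 CPM per kb (SD 9.46, n = 3) in LIN9 wt libraries of experiment 1 and 358 CPM per kb (SD 17.0, n = 3) in LIN9 wt Sav1 wt libraries of experiment 2. Cyr61 and Ctgf followed, with 37.9 and 33.5 CPM per kb in experiment 1, where they overlapped, and 23.2 and 28.9 CPM per kb in experiment 2, where Ctgf lay above Cyr61 in all libraries. Ajuba, Axl, Amotl2 and Amotl1 formed a close group between 18.4 and 21.7 CPM per kb in experiment 1, in which neighbours overlapped. In experiment 2 these 4 genes lay between 18.3 and 22.7 CPM per kb, and there Ajuba overlapped with Cyr61 and not with Amotl2. Crim1 (4.02 and 4.85 CPM per kb in experiments 1 and 2), F3 (2.87 and 2.02) and Nt5e (1.29 and 1.52) were the lowest, and of neighbours among these, F3 and Nt5e overlapped in experiment 2.

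**Figure D1:**
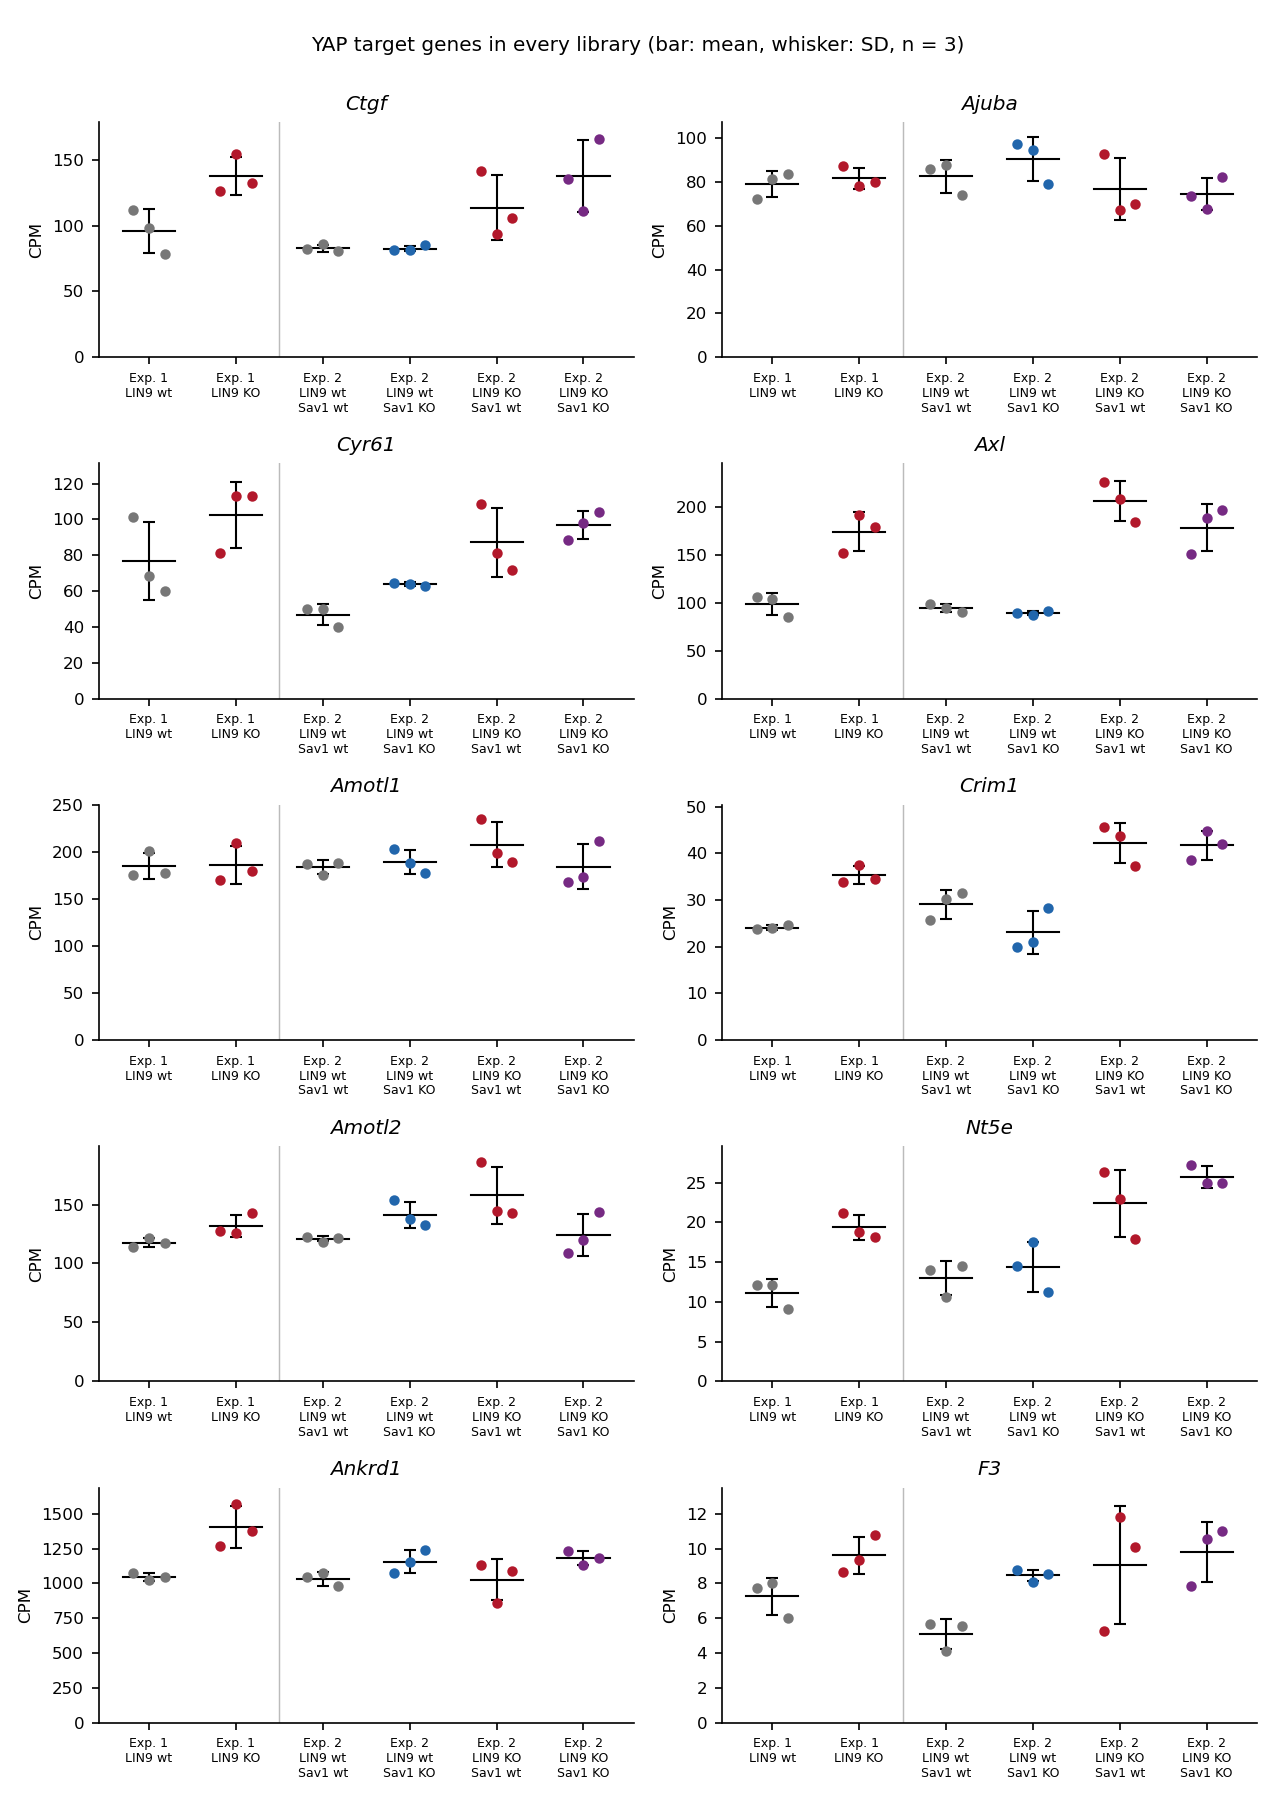
Level of the 10 YAP target genes in CPM in each of the 18 libraries, with a panel per gene, the 6 groups on the x axis, points for libraries, and a bar and whiskers for the mean and SD (n = 3). Axl lies between 150 and 225 CPM in LIN9 KO libraries and between 85.2 and 105 CPM in LIN9 wt libraries, whatever the Sav1 genotype, whereas the points of Ajuba overlap between the groups compared.

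Across the libraries of an experiment, the members varied unequally. In experiment 2, the highest library exceeded the lowest by 2.87 times for F3, 2.71 times for Cyr61 and 2.59 times for Axl, but by 1.45 times for Ajuba and Ankrd1 and 1.40 times for Amotl1. In experiment 1 this ratio was highest for Nt5e (2.34) and lowest for Ajuba (1.21). The ratio of F3 in experiment 2 rests on few reads, 36 counts in the highest library and 12 in the lowest.

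The Sav1 effect with LIN9 present compares LIN9 wt Sav1 KO with LIN9 wt Sav1 wt and asks whether removal of the Hippo scaffold alters YAP targets. No member passed the adjusted threshold. The highest positive log2 fold changes among the members were those of F3, Cyr61 and Amotl2, which were higher in all Sav1 KO libraries than in all Sav1 wt libraries. The matricellular gene Cyr61 was at 50.2, 50.0 and 40.1 CPM with Sav1 wt and at 64.6, 64.2 and 62.8 CPM with Sav1 KO. F3 was at 5.65, 4.11 and 5.53 CPM with Sav1 wt and at 8.75, 8.10 and 8.53 CPM with Sav1 KO. These values of F3 rest on few reads, 17, 12 and 16 counts against 26, 24 and 25 counts. All 3 Sav1 KO libraries lay above all 3 Sav1 wt libraries for Cyr61 and F3. The log2 fold changes by edgeR were 0.45 ± 0.14 for Cyr61 (1.36-fold, unadjusted p = 0.00271, adjusted p = 0.856) and 0.72 ± 0.30 for F3 (1.65-fold, unadjusted p = 0.0221, adjusted p = 0.999). This fit takes the spread of a gene from all 12 libraries of experiment 2. Under other settings with no library of the comparison left out, by edgeR or DESeq2, the adjusted p of Cyr61 ran from 0.141 to 0.9998.

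Amotl2 was at 122, 119 and 122 CPM with Sav1 wt and at 154, 137 and 132 CPM with Sav1 KO. Ankrd1 was at 1044, 1076 and 980.2 CPM with Sav1 wt and at 1077, 1151 and 1243 CPM with Sav1 KO. For these genes, too, the groups did not overlap, although for Ankrd1 the nearest libraries were 1076 and 1077 CPM. Crim1 had the lowest log2 fold change, -0.33 ± 0.16 (adjusted p = 0.999 by edgeR), with 25.6, 30.1 and 31.5 CPM in Sav1 wt and 19.9, 20.9 and 28.3 CPM in Sav1 KO libraries, and its groups overlapped. Ctgf was at 82.1, 85.7 and 80.6 CPM with Sav1 wt and at 81.4, 81.0 and 85.0 CPM with Sav1 KO, a log2 fold change of -0.01 with a 95% interval from -0.30 to 0.29. The remaining members, Amotl1, Ajuba, Axl and Nt5e, had log2 fold changes between -0.09 and 0.15 and overlapping groups. Single libraries moved several of these values: without LIN9 wt Sav1 KO replicate 1 that of Amotl2 was 0.15, and without replicate 3 of that group those of Ankrd1 and Crim1 were 0.11 and -0.51. With each library left out, that of Ajuba ranged from 0.06 to 0.22 and that of Axl from -0.12 to -0.05.

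In this comparison edgeR called 0 of 10 members at an adjusted p under 0.05, compared with 0.017% of all 17675 genes (3 genes by edgeR), and DESeq2 also called 0 members. Without any single one of 5 of the 6 libraries (all but LIN9 wt Sav1 wt replicate 1), the number of genes called was 0. At an unadjusted p under 0.05, 3 members (Cyr61, Crim1 and F3) were counted, against 3.92% of all genes. The 4 members whose groups did not overlap were all higher with Sav1 KO, against 5.97% of all genes, and 0 members were lower without overlap, against 6.14% of all genes. Of the log2 fold changes, 7 were positive and 3 negative, with a median of 0.14 beside 0.00 for all genes, and the median was 0.06 without LIN9 wt Sav1 KO replicate 2. The share of Rn18s-rs5 was lower with Sav1 KO without overlap here (at most 0.256% against at least 0.448%), and its part in these values was not tested.

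In the same libraries, the summed level of the 9 cardiomyocyte markers with counts was 24723, 26074 and 26223 CPM with Sav1 wt and 27464, 27107 and 28158.5 CPM with Sav1 KO, without overlap. That of 8 smooth muscle and pericyte markers was 1676, 1613 and 1604 CPM with Sav1 wt and 1850, 1905 and 1875 CPM with Sav1 KO, a difference carried by Acta2, the most abundant of them (927, 922 and 897 CPM against 1163, 1221 and 1204 CPM), while 5 of the 8 had negative log2 fold changes and Cnn1 was lower without overlap. The 10 endothelial and endocardial markers summed to 1173, 1210 and 1202 CPM with Sav1 wt and to 1097, 1030 and 1097 CPM with Sav1 KO. The sum of 8 epicardial markers was also lower without overlap, with 317, 311 and 311 CPM in Sav1 wt and 282, 299.5 and 302 CPM in Sav1 KO libraries, with 6 of the 8 at a negative log2 fold change and 1 (Lrrn4) was itself lower without overlap. The erythroid markers, at 3839, 3032 and 3171 CPM with Sav1 wt and 2605, 2341 and 3103 CPM with Sav1 KO, overlapped in their sums, but 8 of 9 tested had negative log2 fold changes (median -0.38) and 5 of 9 were lower without overlap. By edgeR, 0 markers of any of the 8 cell type lists passed the adjusted threshold, while 0 cardiomyocyte markers and 1 marker of each other list (endothelial, epicardial, fibroblast, smooth muscle, macrophage, erythroid and atrial) had an unadjusted p under 0.05. Without a filter on low counts 1 erythroid and 1 atrial marker passed as lower, and in a fit of only these 6 libraries 1 atrial marker did as lower and 1 smooth muscle marker as higher. The part of these shifts in the values of Cyr61, Amotl2, Ankrd1 and F3 was not tested. In bulk tissue, fewer cells of a type and less RNA per cell cannot be told apart.

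The Sav1 effect with LIN9 deleted compares the libraries labelled LIN9 KO Sav1 KO with LIN9 KO Sav1 wt. Again no member passed the adjusted threshold. The largest difference was that of Amotl2, and it was negative. Amotl2 was at 186, 144 and 143 CPM in LIN9 KO Sav1 wt libraries and at 109, 120 and 144 CPM in the libraries labelled LIN9 KO Sav1 KO. The groups overlapped at their nearest libraries, and the log2 fold change was -0.35 ± 0.12 (0.786-fold, unadjusted p = 0.00534, adjusted p = 0.210 by edgeR). Without LIN9 KO Sav1 wt replicate 1 it was -0.21.

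Ctgf was at 141, 93.5 and 106 CPM with Sav1 wt and at 135, 111 and 166 CPM with Sav1 KO, so that the groups overlapped (log2 fold change 0.27 ± 0.14, adjusted p = 0.453 by edgeR). Cyr61, at 109, 81.0 and 72.0 CPM with Sav1 wt and 88.6, 98.3 and 103.9 CPM with Sav1 KO, also overlapped. Ankrd1 was the one member without overlap, at 1132, 857 and 1090 CPM with Sav1 wt and 1237, 1135 and 1180 CPM with Sav1 KO (log2 fold change 0.21 ± 0.10, adjusted p = 0.448 by edgeR). The nearest libraries of Ankrd1, at 1132 and 1135 CPM, differed little. Axl was at 225, 208 and 184 CPM with Sav1 wt and at 150, 188 and 196 CPM with Sav1 KO, and overlapped (-0.21 ± 0.11, adjusted p = 0.451 by edgeR). The log2 fold changes of Amotl1, Ajuba, Crim1, Nt5e and F3 lay between -0.17 and 0.19 with overlapping groups. These values, too, moved with single libraries. That of Amotl1, -0.17 with all libraries, was -0.07 without LIN9 KO Sav1 wt replicate 1 and -0.28 without LIN9 KO Sav1 KO replicate 3, and that of Nt5e, 0.19 with all, was 0.33 without LIN9 KO Sav1 wt replicate 1 and 0.06 without replicate 3 of that group. Without LIN9 KO Sav1 wt replicate 1, those of Ctgf and Cyr61 were 0.47 and 0.34 and that of F3 was -0.16, where it was 0.12 with all libraries. Without LIN9 KO Sav1 wt replicate 3 that of Cyr61 was 0.02, without replicate 2 of that group that of Ankrd1 was 0.11, and without LIN9 KO Sav1 KO replicate 1 that of Axl was -0.11. Ctgf was at 0.12 without LIN9 KO Sav1 KO replicate 3.

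In this background edgeR called 0 of 10 members and DESeq2 0, compared with 0.0113% of all genes (2 genes by edgeR). The number of genes called varied with the method and with single libraries. It was 77 by DESeq2, 84 with the replicate block and 309 without a filter on low counts, and it was 378 without LIN9 KO Sav1 wt replicate 3 and 15 without LIN9 KO Sav1 KO replicate 2, with 0 members called each time. The number was 4 without LIN9 KO Sav1 wt replicate 1, 1 without LIN9 KO Sav1 KO replicate 1, and 0 without LIN9 KO Sav1 wt replicate 2 or LIN9 KO Sav1 KO replicate 3. One member, Amotl2, had an unadjusted p under 0.05, beside 11.8% of all genes, so that 1 of 10 was close to the share among all genes. One member, Ankrd1, was higher without overlap (7.2% of all genes) and 0 members were lower without overlap (7.88% of all genes). Of the log2 fold changes, 5 were positive and 5 negative, with a median of 0.05 beside 0.00 for all genes, and the median turned to -0.04 without LIN9 KO Sav1 wt replicate 3, the library with the highest share of Rn18s-rs5 (1.94%).

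The erythroid markers in these libraries summed to 17775, 25810 and 33018 CPM with Sav1 wt and to 25441, 16142 and 8764 CPM with Sav1 KO, with 9 of 9 tested markers at a negative log2 fold change and 0 past the adjusted threshold by edgeR (3 at an unadjusted p under 0.05). Hbb-y was the most abundant of them, and Alas2 was listed at 0 in all libraries, so that the sums are of 9 markers. The sums of the epicardial markers, at 611, 584 and 642 CPM with Sav1 wt and 506, 566 and 531 CPM with Sav1 KO, were lower without overlap, with 7 of 8 markers at a negative value, 1 (Aldh1a2) itself lower without overlap, 0 of 8 past the threshold and 2 at an unadjusted p under 0.05 by edgeR. The 8 atrial cardiomyocyte markers all had negative log2 fold changes, 2 of them at an unadjusted p under 0.05 by edgeR, although their sums overlapped. Their median was -0.24, and -0.06 without LIN9 KO Sav1 KO replicate 1, -0.09 without LIN9 KO Sav1 wt replicate 3 and -0.41 without LIN9 KO Sav1 KO replicate 3. Of 8 macrophage markers, 6 had positive values, with 2 higher without overlap and a median of 0.18 (0.28 without LIN9 KO Sav1 wt replicate 1). By edgeR, 0 markers of these lists passed the adjusted threshold, except that 1 erythroid marker passed without a filter on low counts. The part of these lists in the members' values was not tested.

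The difference between the Sav1 effects in the LIN9 backgrounds was tested as an interaction, the effect with LIN9 deleted minus the effect with LIN9 present. It passed the adjusted threshold for 0 of 10 members by edgeR and for 0 by DESeq2, and for 0 genes in all, which is 0% of the genes tested. The number of genes was 64 without LIN9 KO Sav1 wt replicate 3 and 2 without LIN9 wt Sav1 wt replicate 1. At an unadjusted p under 0.05, 1 member was counted, against 6.54% of all genes. This member was Amotl2, with an interaction of -0.57 ± 0.16 on the log2 scale (95% interval from -0.91 to -0.24, unadjusted p = 0.00154, adjusted p = 0.678 by edgeR). Its Sav1 effect was 0.22 with LIN9 present and -0.35 with LIN9 deleted. For Cyr61 and F3 the interaction was -0.30 (95% interval from -0.68 to 0.08) and -0.61 (from -1.43 to 0.21), and for Ctgf 0.28 (from -0.13 to 0.69). Without LIN9 KO Sav1 wt replicate 1 that of Cyr61 was -0.09 and that of Ctgf 0.48, without replicate 2 of that group that of F3 was -0.34, and without LIN9 KO Sav1 KO replicate 3 that of Ctgf was 0.13. The intervals of the 9 members other than Amotl2 included 0. The median over the members was -0.15, beside 0.00 for all genes, and it was -0.02 without LIN9 KO Sav1 wt replicate 1. These values draw on the libraries labelled LIN9 KO Sav1 KO, whose Lin9 counts did not show the deletion.

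**Figure D2:**
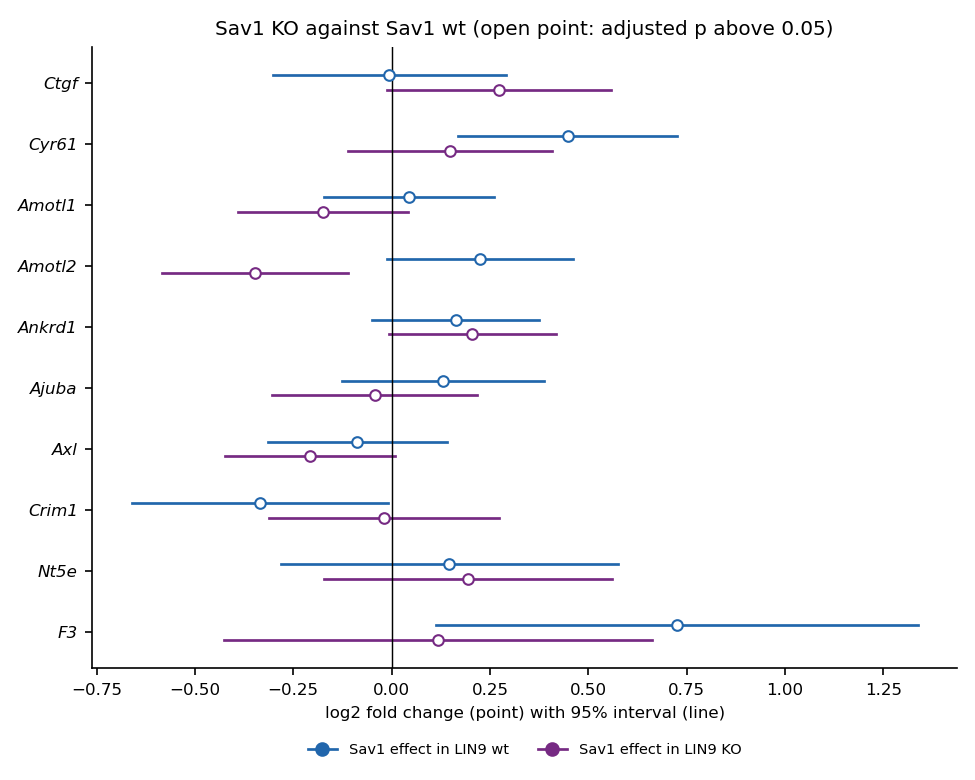
Log2 fold change of Sav1 KO against Sav1 wt (x axis) for each member (y axis), with LIN9 present (blue) and with LIN9 deleted (purple, libraries labelled LIN9 KO Sav1 KO against LIN9 KO Sav1 wt), each point with its 95% interval from 3 libraries a group. All points are open, since no adjusted p was under 0.05, and Amotl2 has values of 0.22 and -0.35 on opposite sides of 0.

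The LIN9 effect compares LIN9 KO with LIN9 wt ventricles and was measured in experiment 1 and, with Sav1 wt, in experiment 2, which share no libraries. In experiment 2 it uses the same LIN9 wt Sav1 wt libraries as the Sav1 effect with LIN9 present and the interaction. A low level in them raises both effects and lowers the interaction, so these values are not independent. Cyr61 and F3 had lower means in them than in LIN9 wt of experiment 1 (46.8 against 76.6 and 5.10 against 7.25 CPM), and Amotl2 did not (121 against 118 CPM). A further LIN9 effect, in Sav1 KO ventricles, uses the libraries labelled LIN9 KO Sav1 KO. In experiment 1, 5 members rose (Ctgf, Ankrd1, Axl, Crim1 and Nt5e) and in experiment 2, 7 rose (Ctgf, Cyr61, Amotl2, Axl, Crim1, Nt5e and F3). In Sav1 KO ventricles 5 rose (Ctgf, Cyr61, Axl, Crim1 and Nt5e). No member fell in any of them. The change of Axl in experiment 2, 2.18-fold, was the highest fold among the members in these comparisons.

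By edgeR's quasi-likelihood test, the 5 members that rose in experiment 1 stood beside 11.1% of all genes, and the 0 that fell beside 9.78%. Without adjustment, 6 members had a p under 0.05 there, beside 6341 of all 19752 genes. These 6 all had positive values, so that the count of members that were lower was 0 in this way too and by DESeq2, which called 5. The groups did not overlap for 7 members, all higher in LIN9 KO, against 18.4% of all genes. All 10 log2 fold changes were positive, with a median of 0.42 beside 0.02 for all genes. Leaving out LIN9 wt replicate 3 reduced the members called to 3 and the genes called in all to 2722, where 2199 were higher and 1932 lower with all libraries.

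In experiment 2, the 7 members that rose stood beside 12.8% of all genes and the 0 that fell beside 10.5%, by edgeR. Unadjusted p-values under 0.05 were also found for 7 members, each with a positive value, beside 5901 of all 17675 genes. DESeq2 called 6 members, all of those that rose but F3. The groups did not overlap for 7 members, all higher (18.4% of all genes), namely those that rose apart from F3, and Amotl1. The median was 0.50 beside 0.01 for all genes, and it was 0.36 without LIN9 KO Sav1 wt replicate 1. The number of members called was 4 without LIN9 wt Sav1 wt replicate 1 or without replicate 2 of that group. The share of Rn18s-rs5 was 1.94% in LIN9 KO Sav1 wt replicate 3 but lower in the other 2 libraries of that group (0.0838% and 0.118%) than in LIN9 wt Sav1 wt, and without replicate 3 the members called were 6, with a median of 0.53.

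In Sav1 KO ventricles, the 5 members that rose stood beside 11.8% of all genes, and the 0 that fell beside 11.6%, by edgeR. At an unadjusted p under 0.05 there were 6 members, of which Ajuba had a negative value, beside 6116 of all 17675 genes. DESeq2 called 5 members. For the same 5 members that rose the groups did not overlap (21.9% of all genes). The median was 0.41 beside 0.03 for all genes. Each of these 5 calls held without any single library. The share of Rn18s-rs5 was at least 0.783% in all 3 libraries labelled LIN9 KO Sav1 KO and at most 0.256% in LIN9 wt Sav1 KO, and its part in these values was not tested.

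Of the secreted matricellular genes, Ctgf was at 112, 97.9 and 78.2 CPM in LIN9 wt and at 127, 154 and 132 CPM in LIN9 KO libraries of experiment 1. In experiment 2 it was at 82.1, 85.7 and 80.6 CPM in LIN9 wt Sav1 wt and at 141, 93.5 and 106 CPM in LIN9 KO Sav1 wt. The LIN9 KO libraries were above all LIN9 wt libraries in both experiments, by little in the case of LIN9 KO Sav1 wt replicate 2. The log2 fold changes were 0.52 ± 0.13 (1.43-fold, adjusted p = 0.00947 by edgeR) and 0.46 ± 0.14 (1.37-fold, adjusted p = 0.0214). Both calls were lost in some fits with 1 library left out. The call of experiment 1 was lost without LIN9 wt replicate 3 (0.40, adjusted p = 0.0584). That of experiment 2 was lost without LIN9 KO Sav1 wt replicate 1 (0.25, adjusted p = 0.161), and without LIN9 wt Sav1 wt replicate 1 (0.43, adjusted p = 0.0639), 2 (0.44, adjusted p = 0.0595) or 3 (0.44, adjusted p = 0.0770). In Sav1 KO ventricles, Ctgf was at 81.4, 81.0 and 85.0 CPM with LIN9 and at 135, 111 and 166 CPM in the libraries labelled LIN9 KO Sav1 KO (0.74 ± 0.14, adjusted p = 0.000500), again without overlap.

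Cyr61 was at 101.3, 68.5 and 59.9 CPM in LIN9 wt and at 81.0, 113 and 113 CPM in LIN9 KO libraries of experiment 1. These groups overlapped, through LIN9 wt replicate 1, and the difference did not pass (0.42 ± 0.21, adjusted p = 0.213 by edgeR). Without LIN9 wt replicate 1 it did (0.67, adjusted p = 0.0135), and without LIN9 wt replicate 3 the value was 0.27. In experiment 2, Cyr61 was at 50.2, 50.0 and 40.1 CPM in LIN9 wt Sav1 wt and at 109, 81.0 and 72.0 CPM in LIN9 KO Sav1 wt, without overlap (0.90 ± 0.13, 1.87-fold, adjusted p = 9.79e-06). With Sav1 deleted it was at 64.6, 64.2 and 62.8 CPM with LIN9 and at 88.6, 98.3 and 103.9 CPM in the libraries labelled LIN9 KO Sav1 KO (0.60 ± 0.13, adjusted p = 0.000951). The call in experiment 2 held without any single library.

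Of the junction proteins, Amotl2 rose in experiment 2, from 122, 119 and 122 CPM in LIN9 wt Sav1 wt to 186, 144 and 143 CPM in LIN9 KO Sav1 wt (0.38 ± 0.12, adjusted p = 0.0147 by edgeR). The groups did not overlap, and LIN9 KO Sav1 wt replicate 1 stood above the others. The call was lost without that library (0.23, adjusted p = 0.138) and without LIN9 wt Sav1 wt replicate 2 (0.33, adjusted p = 0.0780). In experiment 1, Amotl2 was at 114, 122 and 117 CPM in LIN9 wt and at 127, 126 and 143 CPM in LIN9 KO, without overlap and without passing the test (0.17 ± 0.10, adjusted p = 0.275, and 0.11 without LIN9 KO replicate 3). Its value in Sav1 KO ventricles was negative and its groups overlapped (-0.19 ± 0.12, adjusted p = 0.262, and -0.32 without LIN9 KO Sav1 KO replicate 3).

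Amotl1 and Ajuba passed the test in none of the 3 comparisons. Amotl1 ranged from 168 to 235 CPM over the 12 libraries of experiment 2 and from 170.1 to 209.7 CPM over the 6 of experiment 1. Its log2 fold changes by edgeR were 0.01 in experiment 1 (adjusted p = 0.959), 0.18 in experiment 2 (adjusted p = 0.253, and 0.06 without LIN9 KO Sav1 wt replicate 1) and -0.04 in Sav1 KO ventricles (adjusted p = 0.828). Ajuba ranged from 67.2 to 97.6 CPM in experiment 2, with log2 fold changes of 0.05, -0.11 and -0.28 in the same order (adjusted p = 0.809, 0.615 and 0.112), of which that in experiment 2 was -0.29 without LIN9 KO Sav1 wt replicate 1.

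Ankrd1 rose in experiment 1, from 1078, 1023 and 1044 CPM in LIN9 wt to 1269, 1572 and 1377 CPM in LIN9 KO libraries. The groups did not overlap (0.42 ± 0.13, 1.34-fold, adjusted p = 0.0273 by edgeR). The call was lost without LIN9 wt replicate 1 (0.44, adjusted p = 0.0983), 2 (0.41, adjusted p = 0.0906) or 3 (0.42, adjusted p = 0.0827), and without LIN9 KO replicate 2 (0.34, adjusted p = 0.0846). In experiment 2 Ankrd1 was at 1044, 1076 and 980.2 CPM in LIN9 wt Sav1 wt and at 1132, 857 and 1090 CPM in LIN9 KO Sav1 wt. These groups overlapped, and the 95% interval of the log2 fold change, from -0.22 to 0.20, lay around 0 (-0.01, adjusted p = 0.968). The value in Sav1 KO ventricles was 0.03 (95% interval from -0.18 to 0.24).

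Of the cell surface genes, Axl was at 105, 103.9 and 85.2 CPM in LIN9 wt and at 151, 191 and 179 CPM in LIN9 KO libraries of experiment 1. In experiment 2 it was at 98.7, 93.9 and 90.6 CPM in LIN9 wt Sav1 wt and at 225, 208 and 184 CPM in LIN9 KO Sav1 wt. With Sav1 deleted it was at 89.2, 86.8 and 90.8 CPM with LIN9 and at 150, 188 and 196 CPM in the libraries labelled LIN9 KO Sav1 KO. All libraries labelled LIN9 KO lay above all LIN9 wt libraries. The log2 fold changes by edgeR were 0.82 ± 0.12 (1.77-fold, adjusted p = 0.000186), 1.12 ± 0.11 (2.18-fold, adjusted p = 1.01e-08) and 1.00 ± 0.11 (2.00-fold, adjusted p = 8.91e-08), and these calls held without any single library.

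Crim1 was at 23.7, 23.9 and 24.6 CPM in LIN9 wt and at 33.9, 37.5 and 34.6 CPM in LIN9 KO libraries of experiment 1. In experiment 2 it was at 25.6, 30.1 and 31.5 CPM in LIN9 wt Sav1 wt and at 45.7, 43.6 and 37.3 CPM in LIN9 KO Sav1 wt. With Sav1 deleted it was at 19.9, 20.9 and 28.3 CPM with LIN9 and at 38.5, 44.7 and 42.0 CPM in the libraries labelled LIN9 KO Sav1 KO. None of these groups overlapped. Crim1 rose by 0.55 ± 0.11 (adjusted p = 0.00199 by edgeR), 0.54 ± 0.15 (adjusted p = 0.00767) and 0.86 ± 0.15 (adjusted p = 0.000121) on the log2 scale. The call of experiment 2 was lost without LIN9 wt Sav1 wt replicate 1 (0.44, adjusted p = 0.0544).

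Nt5e was at 12.2, 12.1 and 9.04 CPM in LIN9 wt and at 21.1, 18.8 and 18.2 CPM in LIN9 KO libraries of experiment 1. In experiment 2 it was at 13.96, 10.6 and 14.5 CPM in LIN9 wt Sav1 wt and at 26.3, 23.0 and 17.9 CPM in LIN9 KO Sav1 wt. With Sav1 deleted it was at 14.5, 17.6 and 11.3 CPM with LIN9 and at 27.3, 25.0 and 24.9 CPM in the libraries labelled LIN9 KO Sav1 KO. No LIN9 KO library reached down to the LIN9 wt libraries. The log2 fold changes by edgeR were 0.80 ± 0.15 (adjusted p = 0.00154), 0.78 ± 0.20 (adjusted p = 0.00377) and 0.83 ± 0.19 (adjusted p = 0.00170), and the calls held without any single library.

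F3 was the lowest member in CPM. It was at 7.73, 8.01 and 6.03 CPM in LIN9 wt and at 8.67, 9.33 and 10.8 CPM in LIN9 KO libraries of experiment 1, without overlap (0.41 ± 0.18, adjusted p = 0.128 by edgeR). In experiment 2 it was at 5.65, 4.11 and 5.53 CPM in LIN9 wt Sav1 wt and at 5.26, 11.8 and 10.1 CPM in LIN9 KO Sav1 wt. LIN9 KO Sav1 wt replicate 1 lay among the LIN9 wt libraries and the other 2 above them. The test passed narrowly (0.82 ± 0.30, adjusted p = 0.0453 by edgeR). It did not pass by DESeq2 (adjusted p = 0.121), in a fit of the 6 libraries of the comparison alone (adjusted p = 0.102), without LIN9 wt Sav1 wt replicate 1 (0.88, adjusted p = 0.0719), 2 (0.65, adjusted p = 0.195) or 3 (0.88, adjusted p = 0.0808), or without LIN9 KO Sav1 wt replicate 2 (0.53, adjusted p = 0.308) or 3 (0.71, adjusted p = 0.126). The value in Sav1 KO ventricles was 0.21 ± 0.27 (adjusted p = 0.633), and 0.10 without LIN9 KO Sav1 KO replicate 3.

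**Figure D3:**
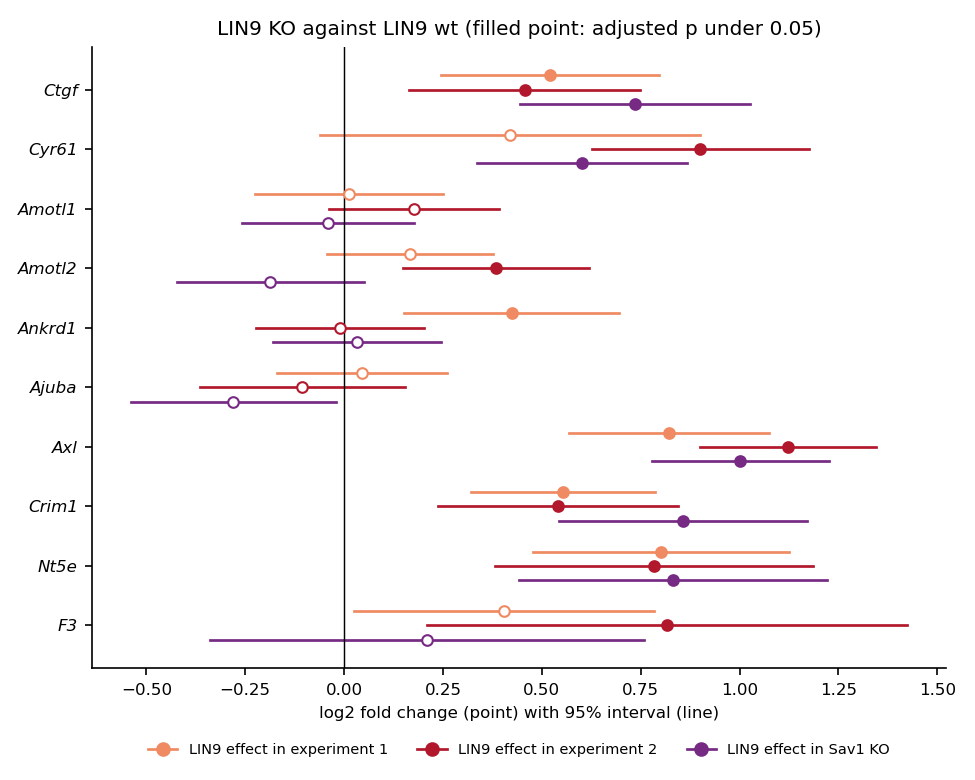
Log2 fold change of LIN9 KO against LIN9 wt (x axis) for each member (y axis) in experiment 1, in experiment 2 with Sav1 wt and in Sav1 KO ventricles (libraries labelled LIN9 KO Sav1 KO against LIN9 wt Sav1 KO), with 95% intervals from 3 libraries a group and filled points for an adjusted p under 0.05. Axl, Crim1, Nt5e and Ctgf have filled points in all 3 comparisons, with values between 0.46 and 1.12, while Amotl1 and Ajuba have open points throughout.

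The other genes of the pathway were taken from 4 lists. Beside their counts stand the shares of all genes that rose with LIN9 KO, 11.1% in experiment 1, 12.8% in experiment 2 and 11.8% in Sav1 KO ventricles, and that fell, 9.78%, 10.5% and 11.6%. Of the 14 further YAP and TAZ targets, 4 rose with LIN9 KO in experiment 1 (Myof, Fjx1, Ptpn14 and Rbms3), 5 of 13 tested in experiment 2 (Myof, Ptpn14, Gadd45b, Arhgef17 and Ccdc80) and 4 of 13 in Sav1 KO ventricles (Myof, Fjx1, Ptpn14 and Ccdc80), while 0 fell by edgeR. The median log2 fold changes of this list were 0.31, 0.43 and 0.24. Myof, which encodes the membrane repair protein myoferlin, rose by 1.63 ± 0.12, 1.44 ± 0.16 and 1.65 ± 0.16 (adjusted p = 7.43e-07, 1.29e-07 and 1.31e-08 by edgeR). Fjx1 rose by 0.63 ± 0.19 in experiment 1 (adjusted p = 0.0284) and by 0.86 ± 0.29 in Sav1 KO ventricles (adjusted p = 0.0310). The first call was lost without any of the 3 LIN9 wt libraries or LIN9 KO replicate 1 (0.43 to 0.67, adjusted p up to 0.154). The second was lost by DESeq2 (0.86, adjusted p = 0.0791). It was also lost without LIN9 wt Sav1 KO replicate 2 or 3 or any library labelled LIN9 KO Sav1 KO (0.67 to 0.87, adjusted p up to 0.154). Rbms3, Gadd45b, Arhgef17 and Ccdc80 are named to complete the counts, after their values were seen.

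Of the 14 genes of the Hippo kinase cascade, 1 rose and 1 fell in experiment 1 (Taok3 and Nf2), 2 rose and 0 fell in experiment 2, and 1 rose and 0 fell in Sav1 KO ventricles, by edgeR. Taok3, an upstream kinase, rose by 0.43 ± 0.12 (adjusted p = 0.0182 by edgeR), and in experiment 2 by 0.74 ± 0.15 (adjusted p = 0.000680) together with Wwc1 (0.61 ± 0.19, adjusted p = 0.0172). It was the 1 gene of the cascade called in Sav1 KO ventricles (0.74 ± 0.16, adjusted p = 0.000882). Nf2, which encodes merlin, fell by 0.35 ± 0.10 on the log2 scale (adjusted p = 0.0177). The call of Nf2 was lost without any of the 3 LIN9 wt libraries or LIN9 KO replicate 1 (log2 fold changes from -0.36 to -0.33, adjusted p up to 0.0651). The call of Taok3 in experiment 1 was lost without LIN9 wt replicate 1 (0.44, adjusted p = 0.0602) or 3 (0.41, adjusted p = 0.0758). The call of Wwc1 was lost by DESeq2 (0.60, adjusted p = 0.0669). It was also lost without LIN9 wt Sav1 wt replicate 2 or 3 or LIN9 KO Sav1 wt replicate 1 or 3 (0.49 to 0.60, adjusted p up to 0.0933).

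Yap1 passed the test in no comparison. It was at 218, 178 and 179.9 CPM in LIN9 wt Sav1 wt and at 267, 208 and 197 CPM in LIN9 KO Sav1 wt libraries, which overlapped (0.22 ± 0.11, adjusted p = 0.161 by edgeR, and 0.06 without LIN9 KO Sav1 wt replicate 1), and its Sav1 effects were -0.10 and -0.18 (adjusted p = 0.999 and 0.536). Wwtr1, the gene of TAZ, was at 130.3, 130.5 and 118 CPM in LIN9 wt Sav1 wt and at 172, 175 and 163 CPM in LIN9 KO Sav1 wt libraries, without overlap (0.43 ± 0.10, adjusted p = 0.00223). In experiment 1, at 120.2, 128 and 124 CPM in LIN9 wt and 139.6, 139.9 and 166 CPM in LIN9 KO, it did not pass (0.26 ± 0.10, adjusted p = 0.0944, and 0.17 without LIN9 KO replicate 3). In Sav1 KO ventricles Wwtr1 passed (0.30 ± 0.10, adjusted p = 0.0319), but not by DESeq2 (adjusted p = 0.0614), without LIN9 wt Sav1 KO replicate 3 (0.20, adjusted p = 0.224), or without replicate 1 (0.25, adjusted p = 0.101), 2 (0.27, adjusted p = 0.123) or 3 (0.31, adjusted p = 0.0601) of the libraries labelled LIN9 KO Sav1 KO.

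Of the 11 genes for YAP, TAZ, TEAD and cofactors, 3 rose and 1 fell in experiment 1, 4 of 10 tested rose and 1 fell in experiment 2, and 3 of 10 rose and 1 fell in Sav1 KO ventricles, by edgeR. The gene that fell was Tead4 each time (by 1.12, 1.07 and 1.34 on the log2 scale, adjusted p = 0.000166, 0.00318 and 0.000290). Vgll3, which encodes a TEAD cofactor, rose by 1.10 ± 0.20 in experiment 1 (adjusted p = 0.000951) and by 1.42 ± 0.35 in experiment 2 (adjusted p = 0.00328). Ptpn14, a phosphatase that binds YAP and is also among the further targets, rose by 1.02 ± 0.11 in experiment 2 (adjusted p = 1.02e-07) and by 0.85 ± 0.11 in Sav1 KO ventricles (adjusted p = 2.07e-06). The other genes that rose in this list were Amot in all 3 comparisons, Ptpn14 also in experiment 1, and Wwtr1 as given above, of which Amot is named after its values were seen. Of the 12 immediate early genes, some of which encode AP-1 subunits, 5 rose in each LIN9 comparison (Fos, Junb, Egr1, Zfp36 and Btg2), while 1 fell in experiment 1 (Jun), 1 in experiment 2 (Atf3) and 2 in Sav1 KO ventricles (Jun and Atf3). The largest changes were those of Fos (2.14 ± 0.25, 2.07 ± 0.28 and 2.33 ± 0.28; adjusted p = 9.50e-05, 2.21e-06 and 3.68e-07) and Junb (1.48 ± 0.24, 1.69 ± 0.21 and 1.35 ± 0.22; adjusted p = 0.00136, 6.17e-07 and 3.80e-05).

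In the Sav1 effects and the interaction, 0 genes of these 4 lists passed the adjusted threshold by edgeR. With LIN9 present, only Sav1, the deleted gene itself, and Wwc1 of the 14 genes of the cascade had an unadjusted p below 0.05, beside 3.92% of all genes. With LIN9 deleted, this held for 2 of 13 further targets (Gadd45b and Ptpn14), Mob1b of the 14 in the cascade, Vgll4 and Ptpn14 of 10 in the TEAD list and 4 of 12 immediate early genes (Jun, Junb, Dusp1 and Zfp36). The share of all genes was 11.8%. In the interaction an unadjusted p below 0.05 was found for Igfbp3, Gadd45b, Wwc1, Wwc2 and Jun, beside 6.54% of all genes. Those that the rule for naming genes does not cover are named after their values were seen.

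**Figure D4:**
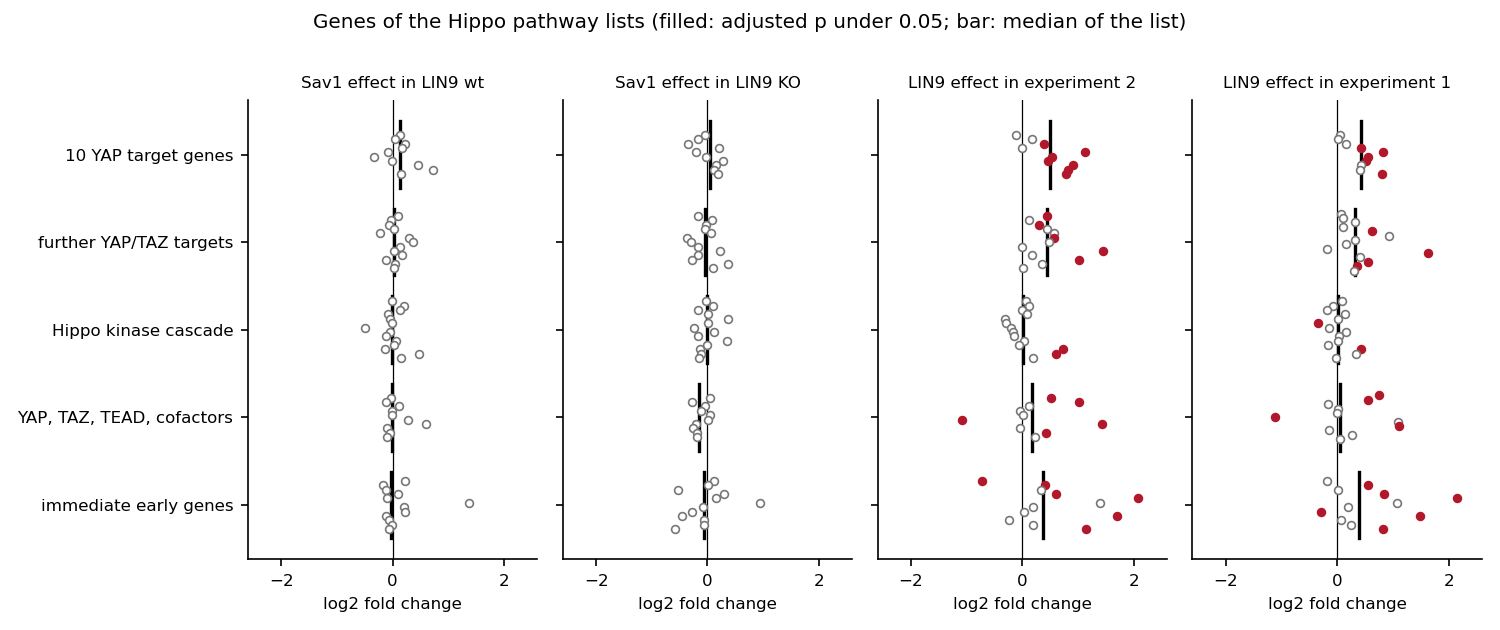
Log2 fold change (x axis) of each gene in the 10 members and the 4 pathway lists (y axis), in a panel per comparison, with filled points for an adjusted p under 0.05 and a bar for the median of the list. With LIN9 KO the medians of the members are 0.42 in experiment 1 and 0.50 in experiment 2 and those of the kinase cascade are 0.01 in both, and no point is filled in the Sav1 panels.

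Markers of the cell types of the ventricle moved with LIN9 KO in the same libraries as the members. Beside their counts stand the same shares of all genes, 11.1%, 12.8% and 11.8% that rose and 9.78%, 10.5% and 11.6% that fell. By edgeR, 7 of 9 tested cardiomyocyte markers fell in each of the 3 LIN9 comparisons, with medians of -0.80 in experiment 1, -0.76 in experiment 2 and -0.74 in Sav1 KO ventricles. Their summed level was 22067, 22826.5 and 21678 CPM in LIN9 wt and 10684, 14613 and 9684 CPM in LIN9 KO libraries of experiment 1, and 14218, 12711.5 and 12613 CPM in LIN9 KO Sav1 wt libraries, beside the values for LIN9 wt Sav1 wt given above. Myh7 was the most abundant marker, and Actc1, a defining marker of cardiomyocytes, was listed at 0 in all libraries, so that the sums are of 9 markers. Whether reads of Actc1 and Alas2 were lost in counting was not tested. The libraries labelled LIN9 KO Sav1 KO had 12393, 14697 and 15981.5 CPM of these markers.

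Of the epicardial markers, 7 of 8 rose in each LIN9 comparison. They summed to 358, 339 and 335 CPM in LIN9 wt and to 625, 600 and 713 CPM in LIN9 KO libraries of experiment 1, with Upk3b as the most abundant. Their values in experiment 2 are given above. All LIN9 KO libraries were thus above all LIN9 wt libraries, by medians over the markers of 0.98, 1.11 and 1.02 on the log2 scale.

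Of the fibroblast and cushion mesenchyme markers, 7 of 8 rose in experiments 1 and 2 and 8 of 8 in Sav1 KO ventricles. They summed to 2215, 2026 and 1942 CPM in LIN9 wt and to 4008, 4305 and 4138 CPM in LIN9 KO libraries of experiment 1, with Col3a1 as the most abundant. In experiment 2 they summed to 2560.1, 2742 and 2566 CPM in LIN9 wt Sav1 wt, 2592, 2945 and 2468 CPM in LIN9 wt Sav1 KO, 5267, 5449 and 4399 CPM in LIN9 KO Sav1 wt, and 4531, 4919 and 5623 CPM in the libraries labelled LIN9 KO Sav1 KO. Again the LIN9 KO libraries lay above the LIN9 wt libraries.

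Macrophage markers rose in 7, 6 and 7 of 8 cases, and Csf1r was the most abundant. They summed to 77.8, 83.6 and 82.8 CPM in LIN9 wt and to 145, 171 and 144 CPM in LIN9 KO libraries of experiment 1. In experiment 2 they summed to 94.1, 97.3 and 96.8 CPM in LIN9 wt Sav1 wt, 79.4, 82.7 and 95.9 CPM in LIN9 wt Sav1 KO, 192, 165 and 164 CPM in LIN9 KO Sav1 wt, and 171, 211 and 215 CPM in the libraries labelled LIN9 KO Sav1 KO. The LIN9 KO groups were separate from the LIN9 wt groups in this list as well.

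The erythroid markers, which belong to blood cells, rose in 9 of 9 tested cases in each LIN9 comparison, by medians of 2.56, 2.77 and 2.42 on the log2 scale. They summed to 8356, 6009 and 6130 CPM in LIN9 wt and to 77747, 39856 and 29239 CPM in LIN9 KO libraries of experiment 1, and to 3839, 3032 and 3171 CPM in LIN9 wt Sav1 wt and 2605, 2341 and 3103 CPM in LIN9 wt Sav1 KO libraries. The values of the other 2 groups are given above, and LIN9 KO replicate 1 of experiment 1 had the highest sum of all 18 libraries.

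The remaining lists moved in both directions or in fewer genes. Of the endothelial and endocardial markers, 2 rose in experiments 1 and 2 (Pecam1 and Emcn) and 1 fell (Cldn5 and Kdr, in this order), and 4 rose (Pecam1, Tek, Emcn and Npr3) and 2 fell (Kdr and Cldn5) in Sav1 KO ventricles. Of the smooth muscle and pericyte markers, 3 rose (Tagln, Pdgfrb and Mylk) in each comparison, while Cspg4 fell in experiment 1, Acta2 in experiment 2, and both in Sav1 KO ventricles. Of the atrial cardiomyocyte markers, of which Myl4 was the most abundant, 1 of 8 rose in experiment 1 (Dkk3) and 3 in the other comparisons (Sln, Dkk3 and Bmp10). These genes are named after their values were seen. In experiment 1, the 1 of 8 atrial markers that rose and the 1 of 10 endothelial markers that fell were near the shares of all genes (11.1% and 9.78%). The part of these cell type shifts in the values of Ctgf, Cyr61, Axl, Crim1, Nt5e and the other members that rose was not tested.

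**Figure D5:**
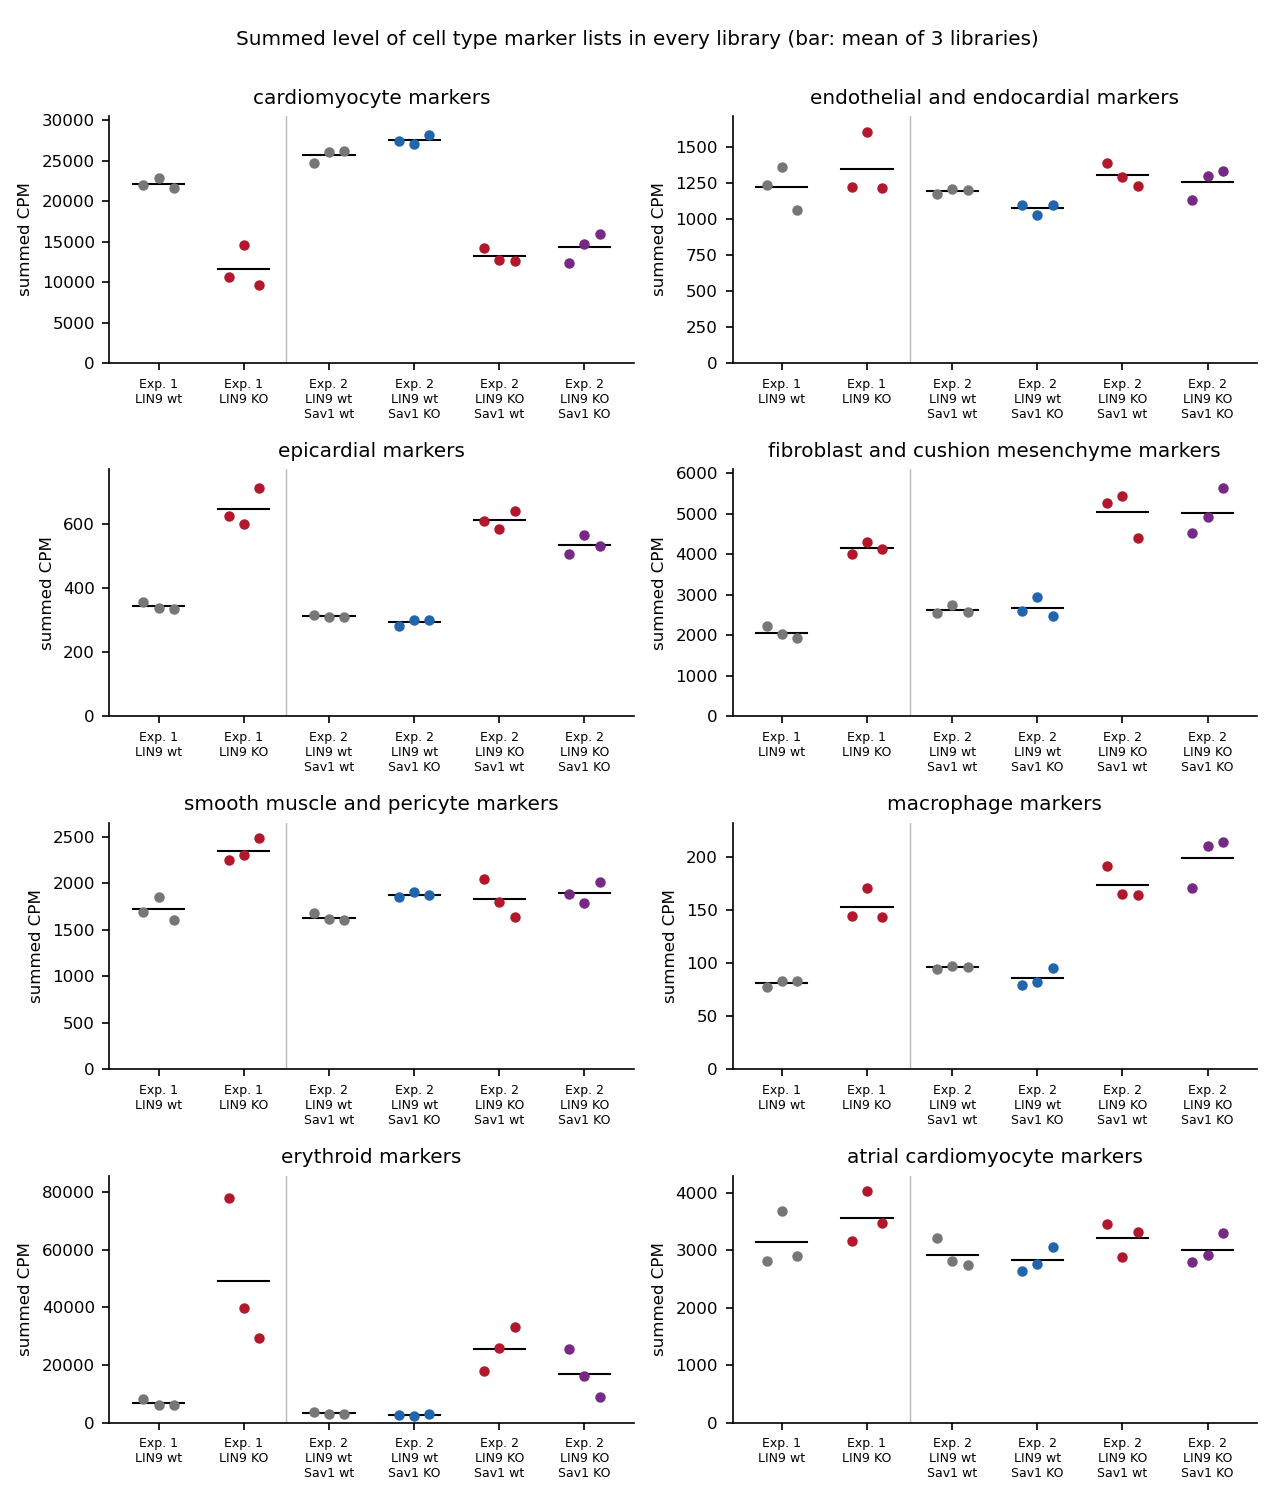
Summed level in CPM (y axis) of 8 lists of cell type markers in each of the 18 libraries, by group (x axis), with points for libraries and a bar for the mean of 3. Fibroblast and cushion mesenchyme markers lie between 4008 and 5623 CPM in all LIN9 KO libraries and between 1942 and 2945 CPM in all LIN9 wt libraries, and cardiomyocyte markers reach at most 15981.5 CPM in the former and at least 21677.5 CPM in the latter.

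Across libraries the members did not all follow each other. Over the 12 libraries of experiment 2, which share their 4 groups, Pearson's r of log2 CPM was 0.84 for Ctgf and Cyr61, 0.91 for Amotl1 and Amotl2, and 0.90 for Axl and Crim1, but -0.47 for Ajuba and Axl and -0.08 for Ankrd1 and Axl. After subtraction of the group means, r was 0.60 for Ctgf and Cyr61, 0.96 for Amotl1 and Amotl2, and 0.39 for Axl and Crim1, so that the motin genes also moved together within groups. For Ajuba and Axl, r within groups was 0.39, with the opposite sign, and for Ankrd1 and Axl it was -0.09. Over the 6 libraries of experiment 1, Ankrd1 and Axl had an r of 0.95, and Amotl1 and Amotl2 an r of 0.02. These values are descriptions over libraries of which 3 share each group, and no p is attached to them.

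The genes most like Ctgf over the 12 libraries of experiment 2, among 12387 genes with a mean of at least 5 CPM that are not members, were Bace2 (r = 0.94), C1qa (r = 0.92) and Enc1 (r = 0.92). Over the 6 libraries of experiment 1 their r with Ctgf was 0.87, 0.72 and 0.89. Those most like Ankrd1 were Mfsd2b (r = 0.88), Arxes2 (r = 0.83) and Megf10 (r = 0.83), with an r of 0.80, -0.83 and 0.80 in experiment 1. Arxes2 thus had the opposite sign there.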

How the data were processed

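RNA from E13.5 ventricles was measured in 18 libraries, 3 in each of 6 groups taken from the sample labels. According to the submitters' processing notes, the authors aligned reads with TopHat2 2.1.0 and Bowtie2 to mm10 (GRCm38.p6), brought each sample down to the mappable reads of the smallest sample, and deposited counts per Ensembl gene made with summarizeOverlaps. The overlap mode and the strandedness are not given in the sources used here. The authors also deposited tables of log2 fold changes, log2 CPM, p-values and false discovery rates from edgeR, which were not used. The 4 ChIP-seq samples of the series were not analysed here, and 0 columns of sample values were left unused.

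From the counts, 4 duplicate identifiers were dropped, and the symbols of experiment 2 were used because 14 differ between the tables. Genes with a mean count above 1 were tested with edgeR 4.0.16 (trimmed mean of M values, robust quasi-likelihood F-test, adjusted p under 0.05) in R 4.3.3 with limma 3.58.1, in a fit for each experiment. SE is the absolute log2 fold change over the square root of F, and intervals are 95%. Scripts were tested on simulated data. Alternatives were DESeq2 1.42.0, RLE factors, no filter, filterByExpr, a block for the replicate number, each library left out, and only the 6 libraries compared. One count is 0.103 to 0.108 CPM in experiment 1 and 0.328 to 0.373 CPM in experiment 2. Positions and exonic lengths are from GENCODE on mm10.

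Over 12397 genes of at least 5 CPM, deviations of equally numbered libraries from their group means correlated above 0.1 in all 3 pairs between the LIN9 wt Sav1 wt group and either single knockout (0.257 to 0.637 with LIN9 KO Sav1 wt, and 0.102 to 0.330 with LIN9 wt Sav1 KO) and between these single knockouts (0.116 to 0.358), but not for LIN9 KO Sav1 KO with any group or, over 12243 genes, in experiment 1 (lowest 0.0576). In experiment 1 the correlations were 0.285, 0.0576 and 0.251, so that pairing is not settled there. What is said of pairing comes from the values alone. Replicates differed by a chi-square over degrees of freedom of 1.22 to 26.2. The values nearest to sampling noise were 1.22 for LIN9 wt Sav1 wt replicates 2 and 3 and 1.39 to 1.98 within LIN9 wt Sav1 KO. The sources do not say that libraries are separate embryos, so each p measures the spread between these samples.

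The members and lists were chosen with earlier results of these data known. The genes named are the members, Lin9, Sav1, Yap1 and Wwtr1, the 2 with the largest absolute log2 fold change among those called in each pathway list and comparison, and the 3 with the highest Pearson correlation of log2 CPM (prior count 2) with Ctgf and Ankrd1 over 12 libraries. The pathway lists are further YAP and TAZ targets, the Hippo kinase cascade, YAP, TAZ, TEAD and cofactors, and immediate early genes. Marker lists are cardiomyocyte, endothelial and endocardial, epicardial, fibroblast and cushion mesenchyme, smooth muscle and pericyte, macrophage, erythroid and atrial cardiomyocyte.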

Additional observations from a re-analysis of the deposited data

How the results depend on the processing

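Each member's Sav1 effect stayed short of the adjusted threshold under every alternative, in both LIN9 backgrounds, as did the interaction. The number of members past it for the LIN9 effect was 3 to 5 with each library left out in experiment 1 (5 with all) and 4 to 6 in experiment 2 (7 with all), and 5 throughout in Sav1 KO ventricles. With the replicate block it was 5, 7 and 5 for the LIN9 effects, and 0, 0 and 0 for the Sav1 effects and the interaction, so that the block changed no call of a member. In experiment 1, where not every correlation of equally numbered libraries was above 0.1, Wwtr1 passed with the block by edgeR (0.25, adjusted p = 0.0431), and 5001 genes did in all. With the block, genes past the threshold numbered 84 instead of 2 for the Sav1 effect with LIN9 deleted.

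Some values near 0 changed sign, and the cause was not tested. In a fit of only the 6 libraries compared, the log2 fold change of Crim1 for the Sav1 effect with LIN9 deleted was 0.000601. With each library left out, log2 fold changes ranged as follows. Sav1 effect with LIN9 present: Ctgf -0.0272 to 0.00391, Amotl1 -0.0212 to 0.0900, Nt5e -0.0267 to 0.295. Sav1 effect with LIN9 deleted: Ajuba -0.119 to 0.125, Crim1 -0.103 to 0.0466, F3 -0.158 to 0.386, median of the members -0.0403 to 0.0859. LIN9 effect in experiment 1: Amotl1 -0.0810 to 0.0783, Ajuba -0.0176 to 0.0899. LIN9 effect in experiment 2: Ankrd1 -0.100 to 0.0716. LIN9 effect in Sav1 KO ventricles: Amotl1 -0.170 to 0.0131, Ankrd1 -0.0305 to 0.0875, Lin9 -0.326 to 0.0189.

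Without a filter, 22 genes passed for the Sav1 effect with LIN9 present, 309 with LIN9 deleted and 17 for the interaction. With only the 6 libraries compared, 31 and 0 passed for the Sav1 effects, and with filterByExpr 0 passed with LIN9 deleted. With a library left out, a group has 2 libraries, and the number of genes past the threshold went up in some of these fits and down in others. The part of sequencing depth in the values of low genes such as F3 was not tested.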
